A study of Mus musculus with 8 samples.

Results

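Cntn2, Irx3, Irx4, Irx5, Tbx3, Gja5, Etv1 and Cpne5 were followed through the left ventricles of 8 mice infused with angiotensin II (AngII). They are grouped here as ventricular conduction genes, a name given in advance and not shown by these bulk tissue data. The members were chosen by gene symbol, as 8 of the 46040 genes in the count table, and Cntn2 was picked because earlier results of these same libraries placed it among the strongest differences between the genotypes. For that reason the group differences of the members are given as descriptions, without a test or a p. The study asked how the myocardium under AngII responds when VEGFR-1, the receptor for vascular endothelial growth factor encoded by Flt1, lacks its kinase signal. One group of 4 libraries carried the genotype tag for VEGFR-1 TK-/- mice, in which the receptor's tyrosine kinase domain is deleted, and the other 4 came from animals tagged as wild type and described as littermate controls. All 8 mice were males of the C57BL/6 strain aged 5 to 7 months, and all received AngII at 0.1 mg/kg per hour until day 14. No library from mice without AngII was analysed here. The mutation is carried by the whole animal, and the RNA came from frozen left ventricle as a bulk tissue, so that fewer cells of a type and less RNA per cell cannot be told apart.

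In the heart, the bundle branches and the Purkinje fibre network carry the impulse quickly to the working ventricular muscle. Cntn2 encodes contactin-2, a cell surface adhesion protein of the immunoglobulin superfamily that is anchored to the membrane by a lipid and is known both from axons near the node of Ranvier and from Purkinje cells of the heart. Gja5 encodes connexin 40, the gap junction protein of the fast conduction system, the atria and the arterial endothelium. Irx3, Irx4 and Irx5 are Iroquois homeobox factors that pattern ventricular gene expression, Tbx3 is a T-box repressor that keeps nodal cells from becoming working myocardium, and Etv1 is an ETS factor linked to fast conduction. Cpne5 encodes a copine, a protein that binds membrane lipids in a calcium-dependent way and has been used as a marker of conduction cells.

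The sequences before a RefSeq start of Cntn2 and of Gja5 are shown because Cntn2 was the member that separated the groups and Gja5 is the connexin of the same fast fibres. They were taken from RefSeq (GRCm38.p6), where 6 of the 8 members had an entry, and Tbx3 and Irx5 had none. Both printed windows lie inside the wider span that the GENCODE annotation gives the gene, so neither is sequence before the whole gene. Capitals mark the letters AAGTG, the core bound by NKX factors, and each window starts after the last upstream base that lies in an exon of another transcript of the gene, which shortened that of Cntn2.
Cntn2, chr1:132542941-132543028, minus strand, 88 bases before the start: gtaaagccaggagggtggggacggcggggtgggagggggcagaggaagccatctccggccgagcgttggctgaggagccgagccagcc
Gja5, chr3:97032152-97032401, plus strand, 250 bases before the start: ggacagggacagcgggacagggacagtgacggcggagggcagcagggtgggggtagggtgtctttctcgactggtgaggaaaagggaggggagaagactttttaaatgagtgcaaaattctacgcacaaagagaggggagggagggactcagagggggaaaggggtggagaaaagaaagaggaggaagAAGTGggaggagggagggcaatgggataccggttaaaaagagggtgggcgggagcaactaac
The Cntn2 window had a GC content of 71.6% and the Gja5 window one of 56.4%. In the 250 bases before the start, AAGTG or its complement was found in Gja5 at 62 bases before the start, and also upstream of Irx3, Cpne5 and, in the part not printed, Cntn2. These letters occur in 40.7% of the 32851 promoters of the same length, and a match describes the letters only. The ETS letters GGAAGT, found in 19.7% of promoters, were present upstream of Cpne5 alone among the members, where they overlapped its AAGTG match. The TATA box letters TATAAA, found in 12.4%, were present in one of the windows of Etv1. The T-box letters GGTGTG (16.3%) and the Iroquois letters ACANNTGT (6.31%) were not found in any member's window, with both strands searched in each case.

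The libraries held between 11449137 and 16239670 counts, so that 1 CPM (a count scaled to the library total) stood for 11.4 to 16.2 counts, and all values below are CPM after TMM scaling unless a count is named. The sample titles name the opposite genotype from the genotype tag and the library name in all 8 cases. Groups follow the tags here, as "control-tagged" and "TK-/--tagged", and every sign below turns if the titles are right. Flt1 itself had 846 to 1054 counts in the control-tagged libraries and 1680 to 2147 in the TK-/--tagged libraries (log2 fold change 1.19, SE 0.12, edgeR quasi-likelihood FDR 0.00808), but these counts cover all exons together, do not show whether the kinase exons are missing and so leave the labels unsettled. Library names also carry the word cardiomyo, whereas the source is given as left ventricular tissue. Among tissue markers, the ventricular light chain Myl2 stood at 5897 CPM per kb of exon, and of the 12 atrial list genes Sln, Bmp10 and Fgf12 stayed at or under 3 counts in any library and Myl7 at 17. The other 8 atrial genes, which the ventricle may express as well, reached from 50 counts for Chst2 to 19414 for Nppa.

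Of the 8 genes, Cntn2 was the one whose groups lay apart: every TK-/--tagged library was below every control-tagged library. Gja5 and Etv1 had lower means in the TK-/--tagged group with overlapping libraries, and the 3 Iroquois genes and Tbx3 had nearly equal means. Cpne5 was close to the limit of detection in both groups.

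Among the Iroquois factors, Irx4, whose product favours ventricular over atrial gene expression, was read at 51.1, 37.4, 41.8 and 42.3 CPM in control-tagged replicates 1 to 4 and at 43.5, 39.7, 52.1 and 44.0 CPM in TK-/--tagged replicates 1 to 4. The groups overlapped, with the lowest library in the control-tagged group and the highest in the other. The means were 43.1 ± 5.73 and 44.8 ± 5.21 (SD, n = 4 each), a log2 fold change of 0.06 (SE 0.12).

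Irx3, needed for rapid conduction through the Purkinje network, had 27.8, 19.9, 28.0 and 28.9 CPM in the control-tagged libraries and 25.5, 35.2, 29.9 and 25.03 CPM in the TK-/--tagged libraries. One control-tagged library, replicate 2, lay well below the other 3, which fell inside the range of the TK-/--tagged group. The means were 26.2 ± 4.21 and 28.9 ± 4.75, with a log2 fold change of 0.14 (SE 0.15).

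Irx5, which acts in the repolarization gradient across the ventricular wall, had 6.74, 4.72, 5.45 and 7.28 CPM in the control-tagged libraries and 3.25, 6.48, 6.87 and 7.17 CPM in the TK-/--tagged libraries. Here the lowest value belonged to the TK-/--tagged group, and the others of that group lay inside the control-tagged range. The means were 6.04 ± 1.17 and 5.94 ± 1.82, with a log2 fold change of -0.02 (SE 0.24). Control-tagged replicate 2 was the lowest of its group for all 3 Iroquois genes. In the same library the summed level of 10 ventricular myocyte markers was 69981 CPM, the lowest of the 8 libraries, and that of 8 fibroblast markers was 2758 CPM, the highest of the 8; their part in the Iroquois values was not tested.

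Tbx3 had 29.1, 26.0, 13.9 and 33.8 CPM in the control-tagged libraries and 27.4, 25.5, 27.5 and 19.1 CPM in the TK-/--tagged libraries. Both ends of its range were control-tagged libraries, and the TK-/--tagged group lay wholly between them. The means were 25.7 ± 8.49 and 24.9 ± 3.98 (log2 fold change -0.05, SE 0.23).

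Etv1 had 3.14, 4.06, 2.15 and 3.84 CPM in the control-tagged libraries and 2.52, 2.04, 1.74 and 3.11 CPM in the TK-/--tagged libraries. The 3 highest libraries were control-tagged, and the fourth control-tagged library, replicate 3, lay within the other group. The means were 3.30 ± 0.860 and 2.35 ± 0.598, with a log2 fold change of -0.48 (SE 0.26).

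Gja5 had 6.89, 11.4, 13.7 and 8.16 CPM in the control-tagged libraries, and 8.94, 7.46, 6.64 and 6.30 CPM in the TK-/--tagged libraries. The 2 highest libraries, replicates 2 and 3, were control-tagged, and replicates 1 and 4 of that group lay within the TK-/--tagged range. The means were 10.04 ± 3.10 and 7.33 ± 1.18, a log2 fold change of -0.46 (SE 0.22), which became -0.27 without control-tagged replicate 3. As Gja5 is also known from arterial endothelium and atrium, those lists stand beside it: 13 of 14 arterial genes had a log2 fold change below 0, with summed levels of 449 to 593 CPM in the control-tagged and 428 to 485 CPM in the TK-/--tagged libraries, and 6 of 9 atrial genes tested were below 0, with sums of 847 to 1371 and 558 to 1488 CPM. Their part in the Gja5 values was not tested.

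Cntn2 had 14, 12, 30 and 23 counts in control-tagged replicates 1 to 4, and 2, 4, 1 and 6 counts in TK-/--tagged replicates 1 to 4. These equal 1.05, 0.871, 2.02 and 1.84 CPM against 0.163, 0.355, 0.0790 and 0.478 CPM, so that the highest TK-/--tagged library stayed under the lowest control-tagged one. Summed over the libraries, 79 counts (95% exact Poisson interval 62.5 to 98.5) stood against 13 (6.92 to 22.2). These intervals cover counting error only, not the spread between libraries, and the sums are not scaled for depth. As Cntn2 was chosen on this contrast, they are no test of the groups. The group means were 1.44 ± 0.569 and 0.269 ± 0.181 CPM, a log2 fold change of -2.40 (SE 0.49), the 4th lowest of the 13542 genes tested. Leaving out 1 library at a time gave values from -2.84 to -2.09. Cntn2 passed the filter on low counts (at least 1 CPM in at least 2 libraries) through the control-tagged group alone, where 3 libraries reached 1 CPM and in the other group 0 did, so that its entry into the fit was tied to the difference itself.

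Cpne5 had 3, 4, 4 and 1 counts in the control-tagged libraries and 0, 3, 1 and 7 counts in the TK-/--tagged libraries. Its highest and lowest libraries were both TK-/--tagged, and the sums were 12 and 11 counts. It reached 1 CPM in 0 libraries and was not tested; with all detected genes kept, its log2 fold change was 0.04 (SE 0.77), an error too wide to show a difference at this depth.

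**Figure D1:**
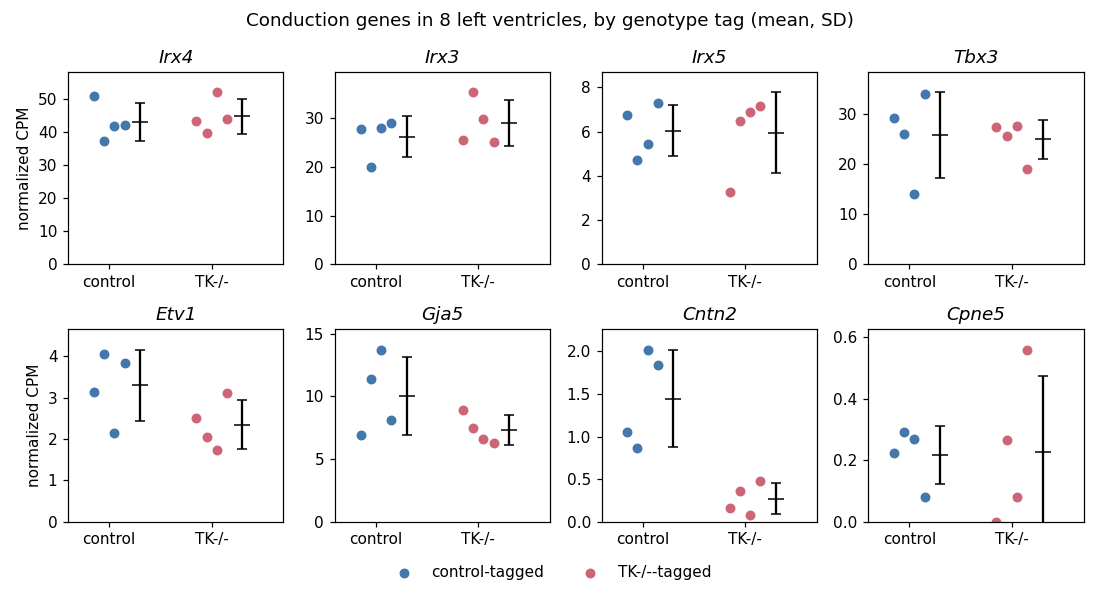
Normalized CPM of the 8 genes in each library (dots, 4 control-tagged in blue and 4 TK-/--tagged in red) with the mean and SD of each group as a black bar, on a separate axis from 0 for each gene. In the Cntn2 panel the TK-/--tagged libraries, at 0.0790 to 0.478 CPM, lie below the control-tagged ones, at 0.871 to 2.02 CPM, and in the other 7 panels the groups overlap; the SD bar of Cpne5 is cut at 0.

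Among the 7 members tested, 1, Cntn2, had groups that did not overlap, and it had been selected on this contrast. Over all genes tested, 4.98% had groups that did not overlap and 2.53% were separated with the TK-/--tagged libraries lower. As background, 0.00738% of all genes tested were called by the quasi-likelihood test (FDR under 0.1 and a change of at least 1.5-fold) and 0.391% by the likelihood ratio test, the one the study used. Nothing is read from these shares for Cntn2, since its choice rested on the same libraries. Across the 16 fits that kept the tags, with other settings or a library left out, the log2 fold change of Gja5 ran from -0.60 to -0.27, that of Etv1 from -0.65 to -0.36 and that of Irx3 from 0.03 to 0.21. For Irx4 (-0.03 to 0.14), Irx5 (-0.13 to 0.18) and Tbx3 (-0.26 to 0.11) the sign changed within that range.

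**Figure D2:**
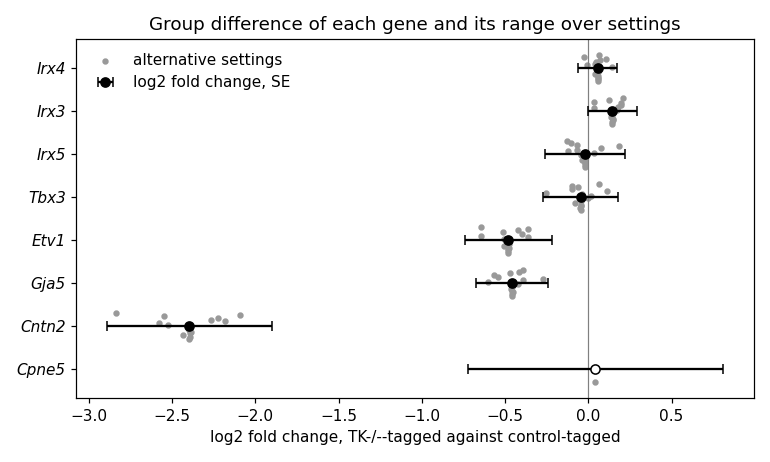
Log2 fold change of each gene, TK-/--tagged against control-tagged, with its SE (black) and the values under the other settings and with single libraries left out (grey). Cntn2 stands at -2.40 and stays between -2.84 and -2.09, Gja5 and Etv1 lie between 0 and -1, and the Iroquois genes and Tbx3 lie around 0; the open circle is Cpne5 fitted with no filter.

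Per length, the members spanned a wide range in these ventricles. Mean levels over the 8 libraries were 16.9 ± 1.97 CPM per kb of exon for Irx4, 9.97 ± 1.60 for Irx3, 3.82 ± 0.930 for Tbx3 and 1.92 ± 0.453 for Irx5. They were 1.51 ± 0.454 CPM per kb for Gja5, 0.213 ± 0.0641 for Etv1, 0.0920 ± 0.0795 for Cntn2 and 0.0163 ± 0.0128 for Cpne5. The transcription factors of the Iroquois family and Tbx3 thus stood above the connexin, and the 3 remaining genes were the lowest. Of the 5 pairs of neighbours without Cntn2, 4 kept this order in 8 of 8 libraries (exact paired sign-flip permutation test of the log2 ratio, two-sided p = 0.0078, the smallest that 8 libraries allow, and 0.00977 after Benjamini-Hochberg adjustment over the 5 pairs). The pairs were taken from the ranking of these same libraries, so the p-values describe only how steadily each pair kept its order. They do not cover errors in the exon lengths. Irx5 and Gja5 were not separated, with Irx5 higher in 5 of 8 libraries (exact permutation p = 0.172), and they changed places when length was taken from the longest transcript instead of all exons. The place of Cntn2 depends on the group, and it was not tested: its level was 0.155 ± 0.0611 CPM per kb in the control-tagged and 0.0289 ± 0.0195 in the TK-/--tagged libraries, beside 0.248 ± 0.0646 and 0.177 ± 0.0450 for Etv1 and 0.0159 ± 0.00698 and 0.0166 ± 0.0183 for Cpne5.

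**Figure D3:**
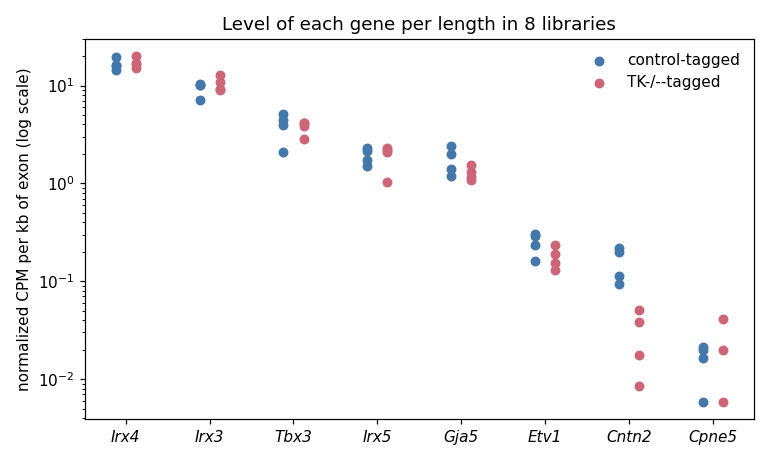
Normalized CPM per kb of exon (log scale) in each of the 8 libraries, control-tagged in blue and TK-/--tagged in red, with genes ordered by their mean. The order runs from Irx4 at a mean of 16.9 to Cpne5 at 0.0163, Irx5 and Gja5 overlap, and the library with 0 counts for Cpne5 cannot be drawn on this axis.

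Set against their paralogs, the members were not the leading forms of every family. Among connexins, Gja1 (connexin 43, the gap junction protein of working myocardium) stood at 33.9 CPM per kb, Gja4 at 9.86, Gjc1 at 5.39 and Gja3 at 3.55, all above Gja5 at 1.51. Of the contactins, Cntn5 at 0.390 CPM per kb was above Cntn2, at 0.155 in the control-tagged and 0.0289 in the TK-/--tagged group, while Cntn1, Cntn4 and Cntn6 had at most 1 count and Cntn3 at most 3 in any library. In the PEA3 group of ETS factors, Etv5 at 4.35 and Etv4 at 0.537 CPM per kb were both above Etv1 at 0.213. Of the T-box factors, Tbx20 (7.93 CPM per kb), Tbx2 (4.90) and Tbx5 (4.81) were above Tbx3 (3.82). Tbx18 (0.972), Tbx15 (0.62), Tbx1 (0.38) and Tbx4, with at most 1 count, were below Tbx3. Among copines, Cpne2 (2.77 CPM per kb), Cpne3 (2.48) and Cpne8 (2.34) were far above Cpne5 (0.0163). In the Iroquois family the order was the other way, since Irx1 (1.28 CPM per kb) and Irx2 (0.653) were below Irx3, Irx4 and Irx5, and Irx6 had at most 1 count.

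The genes around the members were read from GENCODE M21 (GRCm38), as reads of overlapping genes may be split or shared by the counting. Cntn2 lies on chromosome 1 at 132509427-132543256, on the minus strand, with Tmem81 0.788 kb, Rbbp5 3.768 kb, Nfasc 21.434 kb and Dstyk 42.469 kb away and none sharing an exon base. Their log2 fold changes were -0.35 for Tmem81, 0.05 for Rbbp5 and 0.03 for Dstyk, and Nfasc had 1 to 8 counts. Cntn2 was chosen for its difference, so nothing is read from the smaller values of its neighbours. Irx3 (chromosome 8, 91798525-91802067, minus strand) and Irx5 (chromosome 8, 92357625-92376286, plus strand) lie 555.558 kb apart in the same Iroquois cluster. Irx3 shares 124 exon bases with the antisense gene Irx3os (log2 fold change -0.22), and Crnde (0.13) lies 1.505 kb from Irx5. Tbx3 (chromosome 5, 119670669-119684724, plus strand) shares 115 exon bases with the antisense gene Tbx3os1 (-0.25), and it is 27876.880 kb from Flt1 on the same chromosome. Gja5 (chromosome 3, 96904693-97077416, plus strand) shares 165 exon bases with Gpr89 on the opposite strand, which had 248 to 404 counts and a log2 fold change of 0.03. Whether the counting used strand is not given in the sources used here, so reads in those shared bases cannot be assigned to one partner. Irx4 (chromosome 13, 73260479-73269608, plus strand) and Etv1 (chromosome 12, 38779380-38870484, plus strand) shared no exon base with another gene, and Cpne5 (chromosome 17, 29155556-29238167, minus strand) shared 146 bases with a transcript on the opposite strand that has no gene symbol.

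The pattern of Cntn2 over the 8 libraries was compared with that of every other gene tested, by Pearson's r of log2 CPM, as a description over 8 points that share library, depth and the group difference itself. The highest r belonged to Stim1 (0.98), the calcium sensor of the endoplasmic reticulum, Lamb1 (0.96), a laminin chain, Rab3gap2 (0.95), Ccdc6 (0.94) and Susd2 (0.94). Their changes between groups were small next to that of Cntn2, with log2 fold changes from -0.32 for Lamb1 to -0.18 for Rab3gap2. The lowest r belonged to Slc16a10 (-0.98), Gm16316 (-0.97), Fam220a (-0.97), Mettl21a (-0.96) and Cnga3 (-0.96). These are the extremes among 13542 genes tested over 8 libraries, where values this far from 0 can arise with no link between genes. After each group's mean was subtracted, the 5 genes most like Cntn2 were Trim27 (0.96), Adcy1 (0.95), Cd59a (0.93), Hipk2 (0.93) and Cbll1 (0.92), and 0 of them were among the first 5. Cd59a went the other way between groups, with r of -0.55 before the subtraction and a log2 fold change of 0.24. Cntn2 had few counts in the TK-/--tagged libraries, so counting noise enters these r. With its fellow members, Cntn2 had r of 0.52 with Gja5 and 0.54 with Etv1, which became 0.06 and 0.08 within groups. Irx3 and Irx5, the clustered pair, had r of 0.45, and 0.51 within groups, while Gja5 and Irx5 had r of -0.52 and -0.70.

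Other genes of the conduction system were read from lists, in the same fit and with the FDR taken over all 13542 genes tested. In the 12 lists together, 0 genes passed an FDR of 0.1 in the quasi-likelihood test, against 2 in DESeq2 and 3 in the likelihood ratio test (Cpne7, Nr2f1 and Cxcr4). At an unadjusted p under 0.05 stood 1213 of the 13542 genes, and the number in each list is given beside it. The lists were chosen with earlier results of these data known. Their numbers are therefore descriptions, and no list was tested against the share over all genes. Of the conduction factors, 13 of 18 were tested, 10 with a log2 fold change above 0 and 3 below, 1 of them with an unadjusted p under 0.05, and the median was 0.15 beside -0.0012 over all genes tested. Among them Tbx2, a T-box repressor of the atrioventricular canal, had the lowest value, -0.35 (FDR 0.476), with groups that did not overlap. Of the channels and gap junctions, 27 of 28 were tested, with 12 above and 15 below 0, 7 at an unadjusted p under 0.05 and a median of -0.04, which turned to 0.12 without control-tagged replicate 3. The sodium channel gene Scn10a was at -1.02 (FDR 0.522) and the calcium channel gene Cacna1h at -0.57 (FDR 0.556). Scn10a had at most 22 counts in any library, with means of 1.18 CPM control-tagged and 0.57 CPM TK-/--tagged. These lie near the filter limit of 1 CPM, so its entry into the fit may depend on the control-tagged group, where it was higher. Among the values above 0 was Kcnj3, which encodes a subunit of the muscarinic potassium channel, at 0.54 (FDR 0.442, groups not overlapping). Such separation is not particular to Tbx2 and Kcnj3. Over all genes tested 4.98% had groups that did not overlap, and genes of other lists did so too, among them Tbx15, Cpne7, Nr2f1 and Pln.

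Of the 16 Purkinje and conduction cell markers, 14 were tested, 6 above and 8 below 0, 2 at an unadjusted p under 0.05, with a median of -0.26. The median became 0.03 without control-tagged replicate 4. Scn10a belongs to this list as well, with the same limit of low counts. Ntm, a cell adhesion protein used as a Purkinje marker, was at -0.66 (FDR 0.592) and the guidance gene Sema3a at 0.54 (FDR 0.618). Levels of the 16 markers ranged from 0.00912 CPM per kb for Pcp4 to 1182 for Nppa, and 9 were under 1 CPM per kb, among them Ntm at 0.195, Slit2 at 0.130 and Scn10a at 0.110. The higher ones included Igfbp5 at 20.7, Smoc2 at 15.4 and Nptn at 13.1 CPM per kb.

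The paralogs of the members had 19 of 32 genes tested, 4 above and 15 below 0, 8 at an unadjusted p under 0.05, and a median of -0.21, which moved to -0.09 without control-tagged replicate 2. The Iroquois relatives of the members were among the lower values, with Irx2 at -1.05 (FDR 0.468) and Irx1 at -0.88 (FDR 0.556), beside 0.14, 0.06 and -0.02 for Irx3, Irx4 and Irx5. Tbx15 stood at -1.37 (FDR 0.464), Etv4 at -0.97 (FDR 0.486) and Cpne7 at -0.84 (FDR 0.442, and called by the likelihood ratio test). Of the contactin-2 partners, 13 of 16 were tested, 6 above and 7 below 0, 2 at an unadjusted p under 0.05, with a median of -0.05, which turned to 0.04 without TK-/--tagged replicate 4. Cntnap2, whose product pairs with contactin-2 at axons, was at 0 counts in every library, and the extremes of the list were L1cam at -0.43 (FDR 0.639) and Kcna2 at 0.46 (FDR 0.612).

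Markers of other cells that the tissue may hold moved as follows. Of the nerve and Schwann cell list, in which Cntn2 has a known neural role, 12 of 21 genes were tested, 3 above and 9 below 0, with a median of -0.19 and 0 genes at an unadjusted p under 0.05 or by the likelihood ratio test. Its summed level was 147 to 172 CPM in the control-tagged and 113 to 174 CPM in the TK-/--tagged libraries, Tubb3 was at -0.69 and Ngfr at -0.61, Mbp of myelin was at 0.24, and Chat was at 0 counts. The atrial list, with 1 gene at an unadjusted p under 0.05, had a median of -0.27 with Nr2f1 at -0.81 (FDR 0.442), and the arterial list, with 6 such genes, a median of -0.22 with Cxcr4 at -0.83 (FDR 0.442). All 8 fibroblast genes (median -0.30, summed level 1670 to 2758 and 794 to 2208 CPM) and 7 of 8 leukocyte genes (median -0.32, 336 to 446 and 227 to 339 CPM) were below 0, whereas 8 of 10 ventricular myocyte genes were above 0 (median 0.18, 69981 to 99717 and 87510 to 112720 CPM). At an unadjusted p under 0.05 were 0 fibroblast, 2 leukocyte and 2 ventricular myocyte genes. Of the 7 adipocyte genes 0 passed the filter, and Plin1, Lep and Retn were at 0 counts. The part of any of these cells in the Cntn2 values was not tested.

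**Figure D4:**
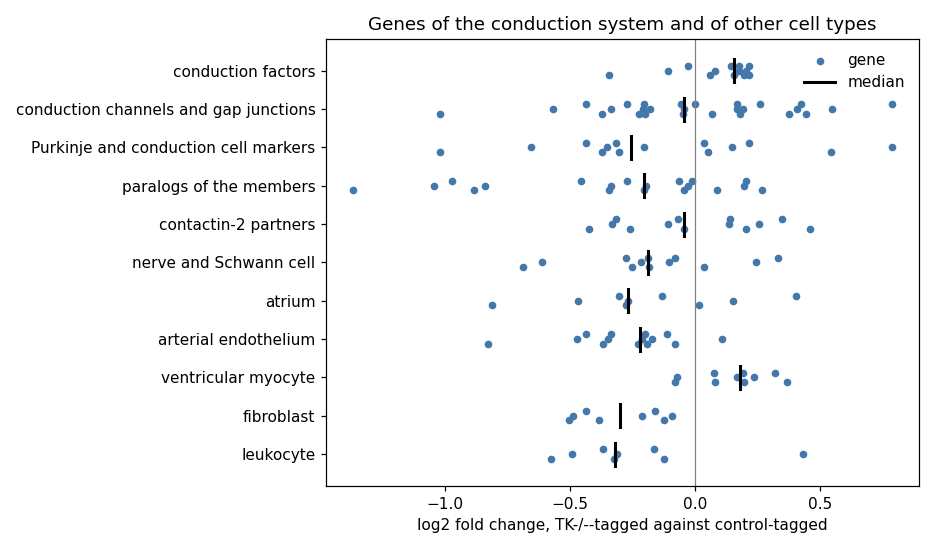
Log2 fold change, TK-/--tagged against control-tagged, of each tested gene (dots) in 11 lists of conduction genes, paralogs, contactin-2 partners and cell type markers, with the list median as a black bar. Medians run from -0.32 for leukocyte genes to 0.18 for ventricular myocyte genes. Cntn2 is in none of these lists.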

How the data were processed

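The authors deposited raw counts per gene for 8 left ventricle libraries. Per the labels and the methods, reads of 100 bases were trimmed with Trim Galore 0.4.4, aligned with STAR 2.5.4b to GRCm38 and counted with featureCounts against GENCODE release 16 for mouse; STAR kept reads with up to 10 alignments, and the strand and multi-mapping settings of the counting step are not given in the sources used here. The labels name ribosomal RNA depletion and the methods a stranded poly-A kit, so the levels of transcripts without poly-A tails depend on which was used. The deposited counts were fitted in edgeR 4.0.16 (R 4.3.3) with TMM factors of 0.917 to 1.12, keeping genes with at least 1 CPM in at least 2 libraries, by the quasi-likelihood test with Benjamini-Hochberg adjustment over 13542 genes, without covariates. The common biological coefficient of variation was 15.14%, and replicates differed by more than sampling noise (chi-square per degree of freedom of 7.18 and above). Labels do not name the animal behind each library, so p-values measure the spread between these samples. As alternatives the fit was repeated with DESeq2 1.42.0, the likelihood ratio test, RLE or total-count scaling, no filter, filterByExpr, a replicate block, single libraries left out and groups by title. Fits were tested on simulated data.

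Lengths and neighbours came from GENCODE release 21 (GRCm38) and promoters from RefSeq. The members and lists were chosen with earlier results of these data known. The text names all members, listed genes with an FDR under 0.1 or a change of at least 1.5-fold, up to 4 extremes of each list, the 5 genes at each end of the likeness to Cntn2 and 5 after centring, neighbours within 50 kb and Flt1. The genes named for their levels beside the members (further paralogs, Purkinje and atrial markers, and Myl2) were taken from the lists after their values were seen. Some listed genes that the rule names are not reported here.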

Additional observations from a re-analysis of the deposited data

Results flagged for a closer look

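Of 40 groups of 4 libraries checked with Dixon's limit for a library far from the others (8 members and 12 lists, in both genotype tags), 5 passed it, where chance gives about 1 in 20. Irx3 had its lowest control-tagged value, 19.9 CPM in replicate 2, away from the next at 27.8 CPM. In the same library the nerve and Schwann cell genes summed to 172 CPM, the highest of the group, with the next at 151 CPM. In control-tagged replicate 4 the Purkinje and conduction cell markers summed to 1187 CPM, with the next at 1606 CPM, in a list where the natriuretic peptide gene Nppa alone had a group mean of 1130 CPM, and the paralogs of the members summed to 576 CPM, with the next at 650 CPM. The lowest sum of the adipocyte genes in the TK-/--tagged libraries was 0 CPM, with the next at 0.0797 CPM, a difference of single counts.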

How the results depend on the processing

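The log2 fold change of Cntn2 was below 0 under every alternative that kept the tags. As Cntn2 was chosen on this contrast and its groups did not overlap, that sign could hardly change, so nothing is read from it. With groups taken from titles the value for Cntn2 was 2.40, and the sign of every member and list turned. The number of genes called was 1 with the quasi-likelihood test and 53 with the likelihood ratio test, 32 with DESeq2 and 23 with no filter on low counts; leaving out 1 library gave 1 to 3. Listed genes with an FDR under 0.1 numbered 0, and 3, 2 and 1 under the same 3 alternatives. RLE, total-count scaling and filterByExpr gave 1 call each. With 1 library left out, list medians of the log2 fold change changed sign for Purkinje markers (-0.39 to 0.03), channels and gap junctions (-0.12 to 0.12) and contactin-2 partners (-0.10 to 0.04). They kept their sign for paralogs (-0.29 to -0.09), conduction factors (0.07 to 0.18), nerve (-0.24 to -0.05), atrium (-0.32 to -0.07), arterial endothelium (-0.31 to -0.13), fibroblast (-0.47 to -0.09), leukocyte (-0.41 to -0.20) and ventricular myocyte genes (0.09 to 0.20); the cause was not tested. Of the 5 genes most like Cntn2, 5 remained with RLE, 1 with Spearman's rho, 0 after centring and 1 to 4 with 1 library left out.

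The counts showed no general pairing by replicate number. Same-numbered libraries had correlations of their deviations of -0.03, 0.03, 0.34 and -0.06, and 1 of 4 was closest to its own number. Whether such libraries shared a litter or batch cannot be known from these values. A replicate block gave 1 call and 0 listed genes with an FDR under 0.1. Depth limited Cntn2 in the TK-/--tagged group, at 1 to 6 counts a library, and Cpne5 in all libraries, at 0 to 7 counts.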
